A study of Rattus norvegicus with 6 samples.

Results

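The miRNAs of the miR-17~92 and miR-106b~25 clusters were examined in the peri-infarct cortex of rats after middle cerebral artery occlusion (MCAO), with and without repetitive transcranial magnetic stimulation (rTMS). The members were chosen by name, as 10 mature miRNAs that come from these polycistrons. Counts of 9 of the 10 were analysed, out of 493 mature miRNAs in all, and miR-19a-3p was not analysed here. All rats were male Sprague-Dawley rats of 250 to 270 g, in which the right middle cerebral artery was closed for 90 min and then reopened, and their age is not given in the sources used here. The MCAO group (n = 3) received no stimulation, and its labels place the tissue at 7 days. The MCAO + rTMS group (n = 3) was stimulated at 10 Hz with a magnetic coil held above the injured hemisphere, for 10 min a day on 7 consecutive days, beginning on the day after reperfusion according to the methods. Its labels give no day, but the study's supplement dates the tissue of this comparison to 7 days as well. The methods give 3 rats a group for the sequencing, and neither group is a sham control, so the sequencing compares stimulated with unstimulated rats after the same injury.

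Each cluster is transcribed as a single precursor that is cut into several hairpins, and each hairpin can yield a mature miRNA from its 5′ side (5p arm) and from its 3′ side (3p arm). A mature miRNA finds its target mRNAs mainly through its seed, bases 2 to 8, so members with the same seed share many targets. The miR-17~92 cluster is known as a growth-promoting polycistron that is induced by MYC and E2F factors and is active in dividing progenitor cells, including neural progenitors, and in blood and endothelial cells. The miR-106b~25 cluster lies within Mcm7, which encodes a subunit of the replicative DNA helicase, and is also linked to proliferation.

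The mature sequences are shown because, in the fit with TMM factors, the members with one seed rose while those with the other seeds fell, in both clusters. They were taken from RefSeq (rat assembly GRCr8) by name, all 9 members matched, and the seed is in capitals. The prefix rno stands for the rat and is left out elsewhere. The first lines are the 4 members with the seed AAAGUGC, called the miR-17 family, from both clusters.
rno-miR-17-5p: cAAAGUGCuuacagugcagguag
rno-miR-20a-5p: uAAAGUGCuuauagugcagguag
rno-miR-93-5p: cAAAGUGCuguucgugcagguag
rno-miR-106b-5p: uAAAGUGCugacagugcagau
The next lines are the 2 members with the seed AUUGCAC, the miR-92 family, from both clusters as well.
rno-miR-92a-3p: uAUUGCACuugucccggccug
rno-miR-25-3p: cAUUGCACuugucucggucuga
The last lines are the only counted members of the miR-18 and miR-19 families and the 3p arm of the miR-17 hairpin.
rno-miR-18a-5p: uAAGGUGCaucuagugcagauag
rno-miR-19b-3p: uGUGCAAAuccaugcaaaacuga
rno-miR-17-1-3p: aCUGCAGUgaaggcacuugugg
Counting from position 1 at the 5′ end, miR-20a-5p differs from miR-17-5p by C1U and C12U. miR-92a-3p and miR-25-3p differ at 3 of the 21 positions compared. Reads of such close relatives are divided by the authors' counting, whose rule is not given in the sources used here.

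In GRCr8 the mature arms of the miR-17~92 cluster lie at chr15:98587861-98588622 on the plus strand, a stretch of 762 nt with 6 hairpins. Those of the miR-106b~25 cluster lie at chr12:22156652-22157123 on the minus strand, 472 nt with 3 hairpins, inside the gene Mcm7 and on its strand. A paralogous cluster, from miR-106a to miR-363, lies at chrX:137342788-137343637 on the minus strand. RefSeq gives miR-17-5p, miR-19b-3p, and miR-92a-3p identical mature sequences on chromosomes 15 and X, so their counts cannot be assigned to either cluster alone.

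The libraries held between 10492610 and 13111127 counts without stimulation and between 13722761 and 15411620 with it. CPM values relate each count to the library total after scaling with a TMM factor, a method that limits the weight of a few very abundant miRNAs. Group differences were tested by the quasi-likelihood method of edgeR in the 452 miRNAs that were kept by its filter on low counts, all 9 members among them, and p-values were adjusted by Benjamini-Hochberg. No count from 1 to 9 was listed, so a listed 0 stands for anything under 10 counts. The brain miRNAs miR-124-3p, miR-9a-5p, and miR-128-3p together held from 323008 to 610146 CPM in every library, so the markers of the labelled tissue were present throughout. Of the tested miRNAs, 55.3% were called at an adjusted p under 0.05, 28.1% as lower and 27.2% as higher in the MCAO + rTMS group. Their median log2 fold change was -0.21 under TMM scaling and -0.80 if only library totals were used.

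The members of the miR-17 and miR-92 families moved in opposite directions. In the MCAO + rTMS group 7 of the 9 members fell and 2 rose at an adjusted p under 0.05 in the edgeR test. The 7 that fell were all 4 members of the miR-17 family, miR-18a-5p, miR-19b-3p, and miR-17-1-3p, and the 2 that rose were the members of the miR-92 family, miR-92a-3p and miR-25-3p. Of the 7, miR-18a-5p, miR-17-1-3p, miR-19b-3p, and miR-106b-5p passed the filter on low counts only through the MCAO group, where they are high, so their direction was set in part by the filter and their calls are a description. The other 3 that fell and both that rose had counts above the level of the filter in all 6 libraries. Of the 47 tested miRNAs that passed only through the MCAO group, 24 were called lower by edgeR. In TMM-scaled CPM, with a listed 0 taken as 0, all libraries of a group lay on the same side of the other group for each of the 9. For those that passed the filter only through the MCAO group this is a description as well. Such a separation was found in 66.8% of all tested miRNAs, with lower values after rTMS in 36.1% and higher values in 30.8%. The median log2 fold change of the 9 was -2.14, and it was -1.51 when the 2 members listed at 0 in every MCAO + rTMS library were set at a lower bound for their change. In whole tissue, fewer cells of a type and less miRNA per cell cannot be told apart.

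**Figure D1:**
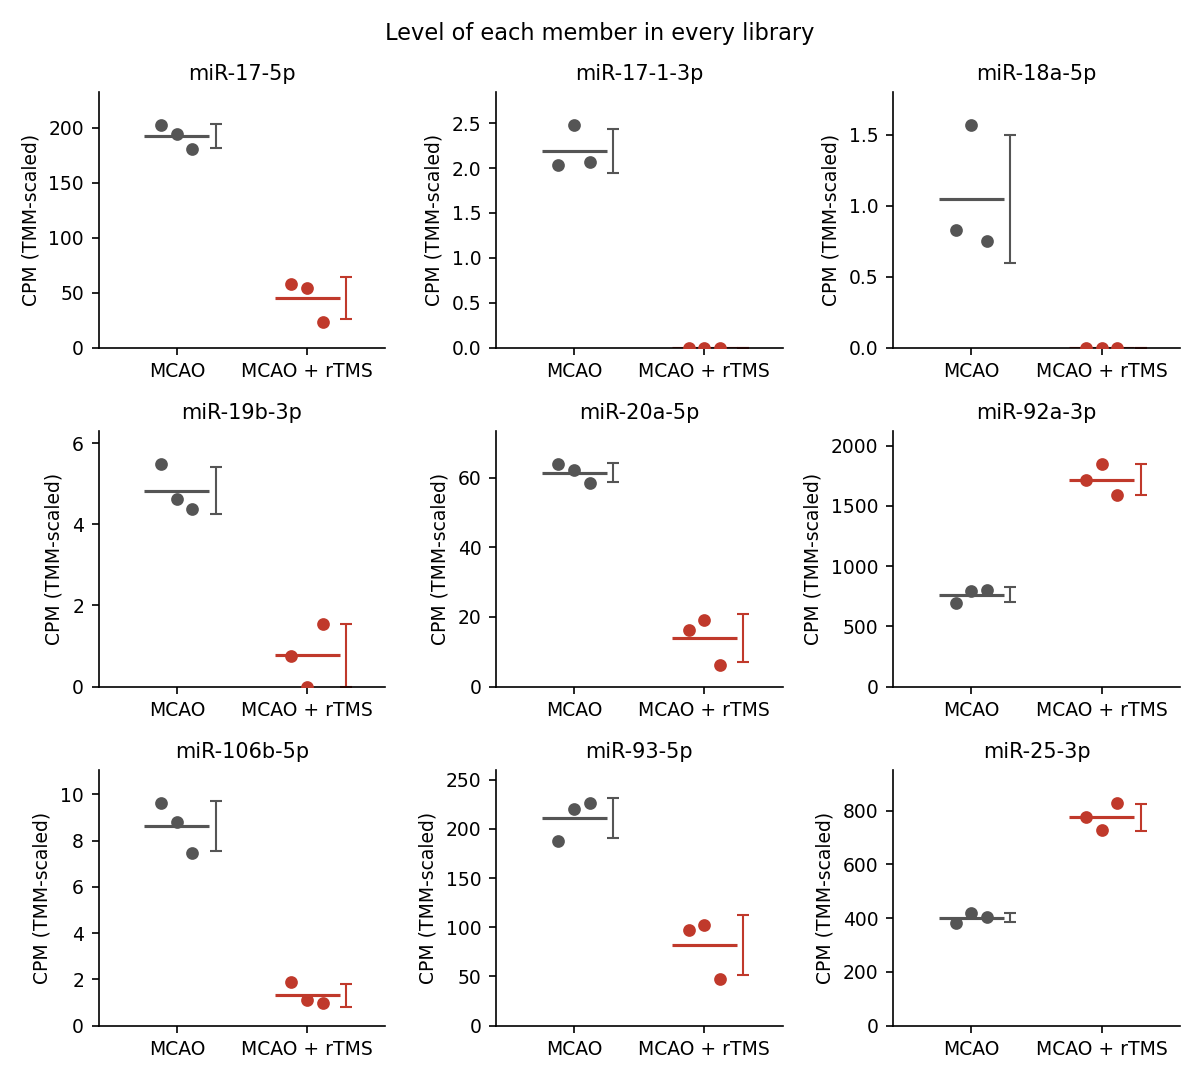
Level of each of the 9 members in every library, in CPM of the TMM-scaled total on a linear axis from 0, with 3 libraries a group as points, the mean as a line, and the SD as a bar beside it. All MCAO + rTMS points lie below all MCAO points in 7 panels and above them in the panels of miR-92a-3p and miR-25-3p, and the points drawn at 0 are counts under 10.

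miR-17-5p, the member that names the family and a repressor of cell cycle brakes such as p21, was at 202, 195, and 181 CPM in the MCAO libraries and at 57.5, 54.3, and 23.1 CPM in the MCAO + rTMS libraries. The highest MCAO + rTMS library was far below the lowest MCAO library. The decrease was 4.28-fold, or -2.10 on the log2 scale (SE 0.34, adjusted p = 0.0022 by edgeR), against an SD of 10.8 CPM in the MCAO group. miR-20a-5p, its closest relative by sequence among the members and encoded further along the same cluster, was at 63.8, 62.1, and 58.4 CPM in the MCAO libraries and at 16.3, 19.2, and 6.12 CPM in the MCAO + rTMS libraries. Its log2 fold change was -2.14 (SE 0.39, adjusted p = 0.0034 by edgeR). In both, MCAO + rTMS replicate 3 was the lowest library.

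The miR-17 family members of the miR-106b~25 cluster fell as well. miR-93-5p was at 188, 220, and 226 CPM in the MCAO libraries and at 97.1, 103, and 47.0 CPM in the MCAO + rTMS libraries. Its log2 fold change of -1.36 (SE 0.31, adjusted p = 0.0085 by edgeR) was the smallest in size among the 4. miR-106b-5p was much rarer, with 151, 107, and 119 counts in the MCAO libraries and 25, 13, and 10 counts in the MCAO + rTMS libraries. Its log2 fold change was -2.69 (SE 0.33, adjusted p = 0.00077 by edgeR), and its lowest MCAO + rTMS count equals the smallest count listed in the table. Replicate 3 of the MCAO + rTMS group was the lowest of the 6 libraries for all 4 members. Without it, the log2 fold changes were -1.76 for miR-17-5p, -1.77 for miR-20a-5p, -1.06 for miR-93-5p, and -2.48 for miR-106b-5p, and all 4 still passed the threshold.

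The rarer seeds of the miR-17~92 cluster were near the lower limit of the counts. miR-19b-3p had 86, 56, and 70 counts in the MCAO libraries and 10, 0, and 16 counts in the MCAO + rTMS libraries. The log2 fold change was -2.67 (SE 0.82, adjusted p = 0.028 by edgeR), with the widest SE of the members that had counts in both groups. This call was lost when any of MCAO replicates 1, 2, or 3 or MCAO + rTMS replicate 1 was left out, with adjusted p = 0.089, 0.082, 0.065, and 0.078 in the same edgeR test. Without MCAO + rTMS replicate 2, the library listed at 0, the log2 fold change was -2.04, and without replicate 3 it was -3.56.

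miR-18a-5p had 13, 19, and 12 counts in the MCAO libraries and was listed at 0 in all 3 MCAO + rTMS libraries. If each of those zeros stood for 9 counts, the mean level would be at least 1.36-fold lower in the MCAO + rTMS group, and in a fit with 9 in place of each 0 the difference did not pass the threshold (adjusted p = 0.37, edgeR). miR-17-1-3p, the 3p arm of the miR-17 hairpin on chromosome 15, had 32, 30, and 33 counts and was again listed at 0 in all 3 MCAO + rTMS libraries. It was at least 2.85-fold lower by the same bound. With 9 in place of each 0, its log2 fold change was -1.47 (adjusted p = 0.0012, edgeR). That fit puts the same count in all 3 MCAO + rTMS libraries, so their true spread is absent from this p-value. miR-17-1-3p passed the filter only through the MCAO group, so its call stays a description.

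The miR-92 family, whose members are known to repress the pro-apoptotic factor BIM and integrin subunits, was higher after rTMS. miR-92a-3p, the most abundant member and the last of the miR-17~92 cluster, was at 690, 794, and 801 CPM in the MCAO libraries and at 1716, 1845, and 1590 CPM in the MCAO + rTMS libraries. No library of either group reached the range of the other in these TMM-scaled levels, and the log2 fold change was 1.17 (SE 0.17, adjusted p = 0.0016 by edgeR). miR-25-3p, the last of the miR-106b~25 cluster, was at 383, 417, and 405 CPM in the MCAO libraries and at 775, 726, and 827 CPM in the MCAO + rTMS libraries. It rose by 0.95 on the log2 scale (SE 0.16, adjusted p = 0.0029 by edgeR), and again the groups did not overlap.

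The calls of these increases depended on the scaling of the libraries, and those of the decreases of miR-17-5p, miR-20a-5p, and miR-93-5p did not. Scaled by library totals alone, miR-92a-3p had a log2 fold change of 0.55 (adjusted p = 0.061 by edgeR) and miR-25-3p one of 0.31 (adjusted p = 0.18), so neither passed the threshold. The groups then overlapped for miR-92a-3p, at 827, 918, and 1116 CPM of the library total in the MCAO libraries and 1480, 1595, and 1106 CPM in the MCAO + rTMS libraries. For miR-25-3p they still did not overlap, with a highest MCAO level of 564 CPM and a lowest MCAO + rTMS level of 575 CPM. All 7 decreases kept their call under that scaling, in which 58.2% of all tested miRNAs were called, 46.0% as lower and 12.2% as higher. For miR-18a-5p, miR-17-1-3p, miR-19b-3p, and miR-106b-5p, which passed the filter only through the MCAO group, these calls are a description. Relative to the median of all tested miRNAs, the log2 fold change of miR-92a-3p was 1.38 under TMM scaling and 1.35 under library totals. For miR-25-3p these values were 1.16 and 1.12, and for miR-17-5p they were -1.89 and -1.87. A change of scaling moves all miRNAs of a library together, so these relative values stay close by construction.

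**Figure D2:**
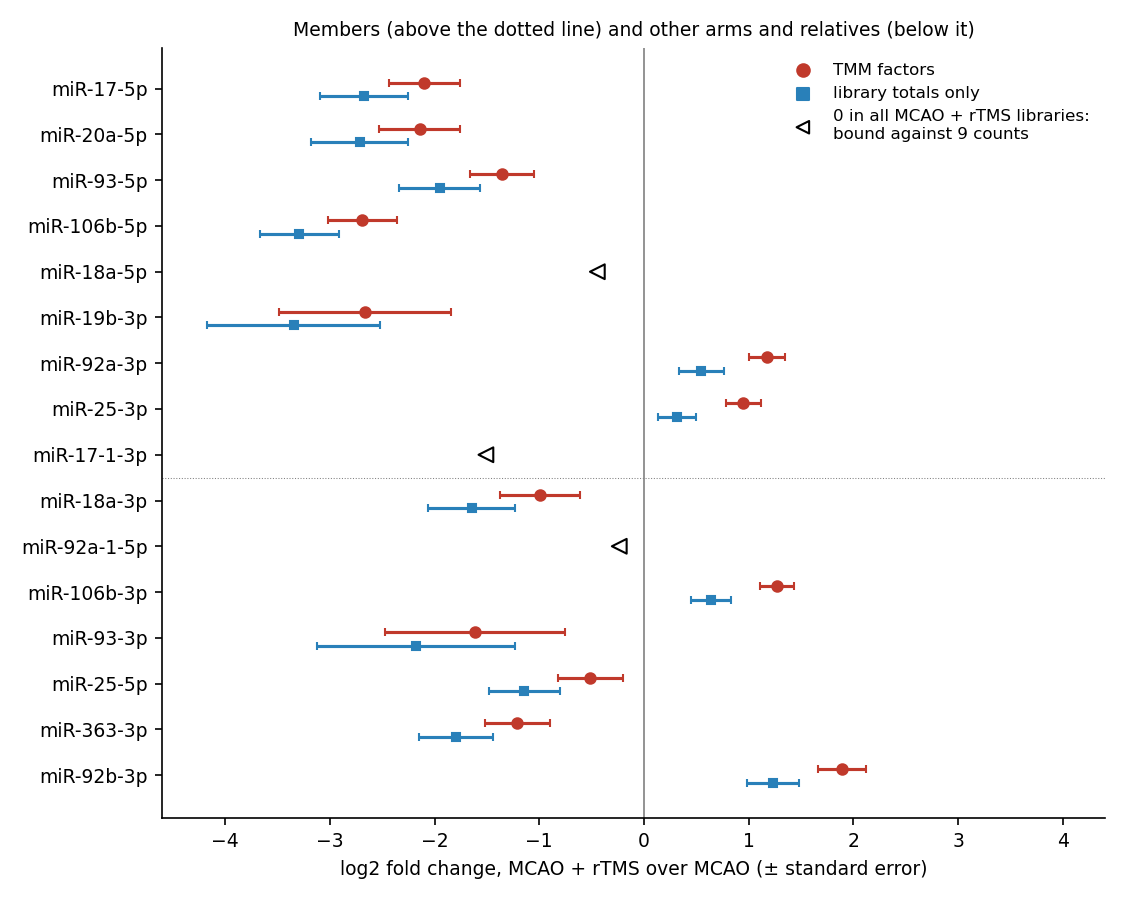
Log2 fold change with its standard error for the members (above the dotted line) and for other arms and relatives (below it), with TMM factors as circles and library totals only as squares, 3 libraries a group. The miR-17 family and miR-19b-3p lie left of 0 under both scalings, miR-92a-3p and miR-25-3p move toward 0 with library totals only, and open triangles mark bounds for miRNAs listed at 0 in all MCAO + rTMS libraries.

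Sums over a seed family showed the same contrast, and are given without a test. The 4 members of the miR-17 family together were at 464, 485.7, and 473 CPM in the MCAO libraries and at 173, 177, and 77.3 CPM in the MCAO + rTMS libraries, a 3.33-fold decrease of the mean. The 2 members of the miR-92 family together were at 1074, 1212, and 1206 CPM and at 2490, 2572, and 2417 CPM, a 2.14-fold increase (log2 ratio 1.10, and 0.47 with library totals only). Among all counts of the 9 members, the miR-92 family took 70.7% ± 1.08 (SD, n = 3) without rTMS and 94.6% ± 1.92 (SD, n = 3) with it. The share of the miR-17 family was 28.8% ± 1.03 and 5.34% ± 1.95 (SD, n = 3 each). The 9 members held 0.206% ± 0.0260 of all counts without rTMS and 0.214% ± 0.0349 with it (SD, n = 3 each), a difference smaller than the SD.

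Sums over a cluster hid this contrast. The 6 counted members of the miR-17~92 cluster together were at 1024 ± 51.7 CPM (SD, n = 3) without rTMS and 1777 ± 149 CPM (SD, n = 3) with it, of which most was miR-92a-3p. The 3 members of the miR-106b~25 cluster together were at 622 ± 35.6 and 860 ± 25.4 CPM (SD, n = 3 each). The log2 ratio of the mean sums was 0.79 for miR-17~92 and 0.47 for miR-106b~25 with TMM factors. With library totals only these were 0.17 and -0.17, so the direction of the miR-106b~25 sum turned with the scaling.

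Ratios between members within a library do not depend on the scaling, and 6 such ratios were compared with an exact two-sided permutation test, whose smallest p for 3 libraries against 3 is 0.1. Within the miR-17~92 cluster, miR-17-5p was at 0.293, 0.245, and 0.226 counts for each count of miR-92a-3p in the MCAO libraries and at 0.0335, 0.0294, and 0.0145 in the MCAO + rTMS libraries. The groups were far apart, with a difference of -3.38 on the log2 scale (exact permutation p = 0.1, 0.2 after Benjamini-Hochberg adjustment over the 6 ratios). Within the miR-106b~25 cluster, the ratio of miR-106b-5p to miR-25-3p differed by -3.72 on the log2 scale, again without overlap (exact permutation p = 0.1, adjusted 0.2). Both ratios set a member of the miR-17 family against one of the miR-92 family, and other pairs with unlike seeds were not compared as ratios. miR-19b-3p, which differs in seed from miR-17-5p, had a log2 fold change of -2.67, and miR-17-5p one of -2.10. The filter on low counts kept miR-19b-3p and miR-106b-5p only through the MCAO group. The directions of both, and of the ratio of miR-106b-5p to miR-25-3p, are therefore a description.

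In the 4 pairs that share a seed, the difference between the groups was smaller in size than in these 2 pairs, which was not tested. Each of these 2 pairs sets a member that fell against one that rose, so a larger difference follows from the fold changes above. The ratio of miR-20a-5p to miR-17-5p was 0.315, 0.319, and 0.322 in the MCAO libraries and 0.284, 0.354, and 0.265 in the MCAO + rTMS libraries, and the groups overlapped (difference -0.095 on the log2 scale, exact permutation p = 0.4, adjusted 0.4). The ratio of miR-25-3p to miR-92a-3p differed by -0.22 on the log2 scale, with overlap (exact permutation p = 0.2, adjusted 0.24). miR-17-5p and miR-106b-5p, which share a seed across the clusters, differed by 0.56, with overlap (exact permutation p = 0.2, adjusted 0.24). The ratio of miR-93-5p to miR-106b-5p was 19.6, 24.9, and 30.3 in the MCAO libraries and 51.6, 93.7, and 48.4 in the MCAO + rTMS libraries, without overlap (difference 1.33 on the log2 scale, exact permutation p = 0.1, adjusted 0.2). The MCAO + rTMS values of this last ratio rest on 25, 13, and 10 counts of miR-106b-5p, which passed the filter only through the MCAO group.

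**Figure D3:**
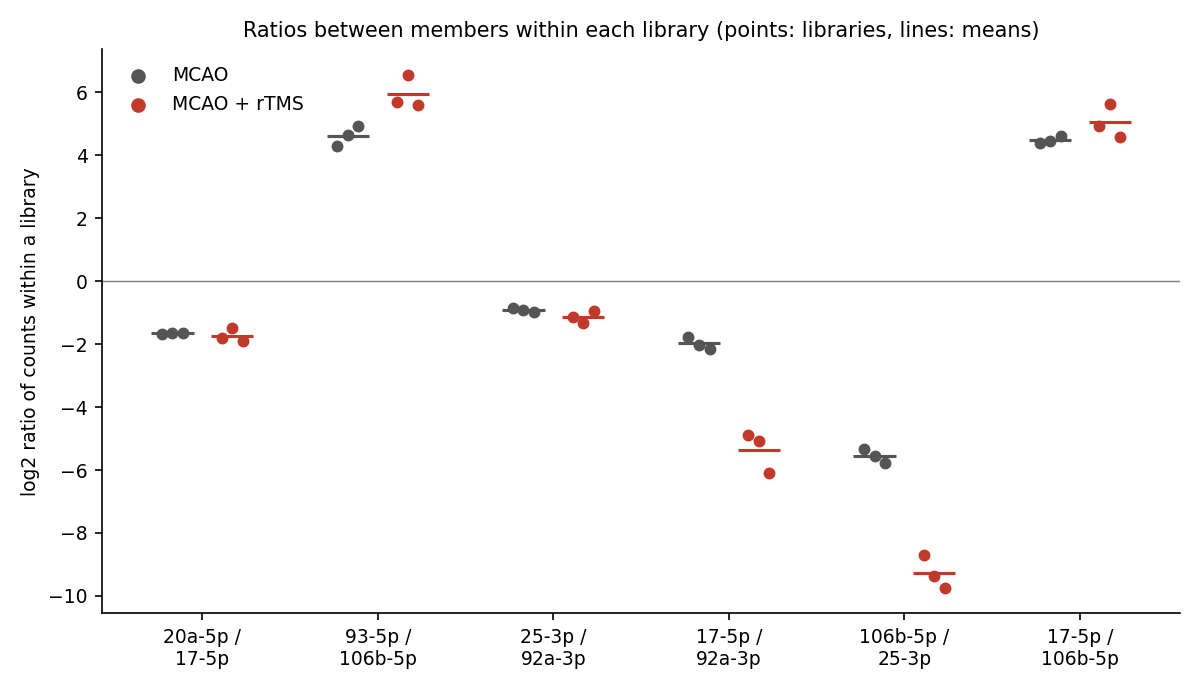
Log2 ratio of the counts of 2 members within each library, for 6 pairs, with 3 MCAO and 3 MCAO + rTMS libraries as points and group means as lines. The ratios of miR-17-5p to miR-92a-3p and of miR-106b-5p to miR-25-3p differ by -3.38 and -3.72 between the groups, while those of miR-20a-5p to miR-17-5p and of miR-25-3p to miR-92a-3p overlap.

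The opposite arms of the same hairpins gave a further view of the clusters. Counts were found for 5 of the 8 other arms listed for the 2 clusters, and of these 1 rose, 1 fell, and 3 did not pass the threshold. Of all tested miRNAs, 27.2% were called higher and 28.1% lower in the same edgeR test. The 3p arm of the miR-106b hairpin, whose 5p arm fell, went the other way. miR-106b-3p was at 74.6, 82.2, and 75.3 CPM in the MCAO libraries and at 184, 180, and 196 CPM in the MCAO + rTMS libraries, an increase of 1.27 on the log2 scale (SE 0.16, adjusted p = 0.00091 by edgeR). With library totals only its log2 fold change was 0.64, and it kept its call. Its sequence and that of its partner show that the arms do not share a seed.
miR-106b-3p: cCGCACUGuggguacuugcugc
miR-106b-5p: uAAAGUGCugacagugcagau
The 3p arm was also the more abundant, with 1172, 996, and 1202 counts in the MCAO libraries against 151, 107, and 119 of the 5p arm.

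The other tested arms were rare. miR-92a-1-5p, the partner of miR-92a-3p on chromosome 15, had 17, 10, and 13 counts in the MCAO libraries and was listed at 0 in the MCAO + rTMS libraries. It passed the filter only through the MCAO group, so its lower call is a description. By the bound of 9 counts it was at least 1.18-fold lower, and the call was lost with 9 in place of each 0 (adjusted p = 0.60, edgeR). miR-18a-3p (log2 fold change -0.99, adjusted p = 0.058), miR-93-3p (-1.62, adjusted p = 0.15), and miR-25-5p (-0.51, adjusted p = 0.19) did not pass the threshold of the edgeR test. For the miR-25 and miR-92a hairpins, as for miR-106b, the abundant 3p arm rose in the fit with TMM factors while the rare 5p arm did not rise.

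**Figure D4:**
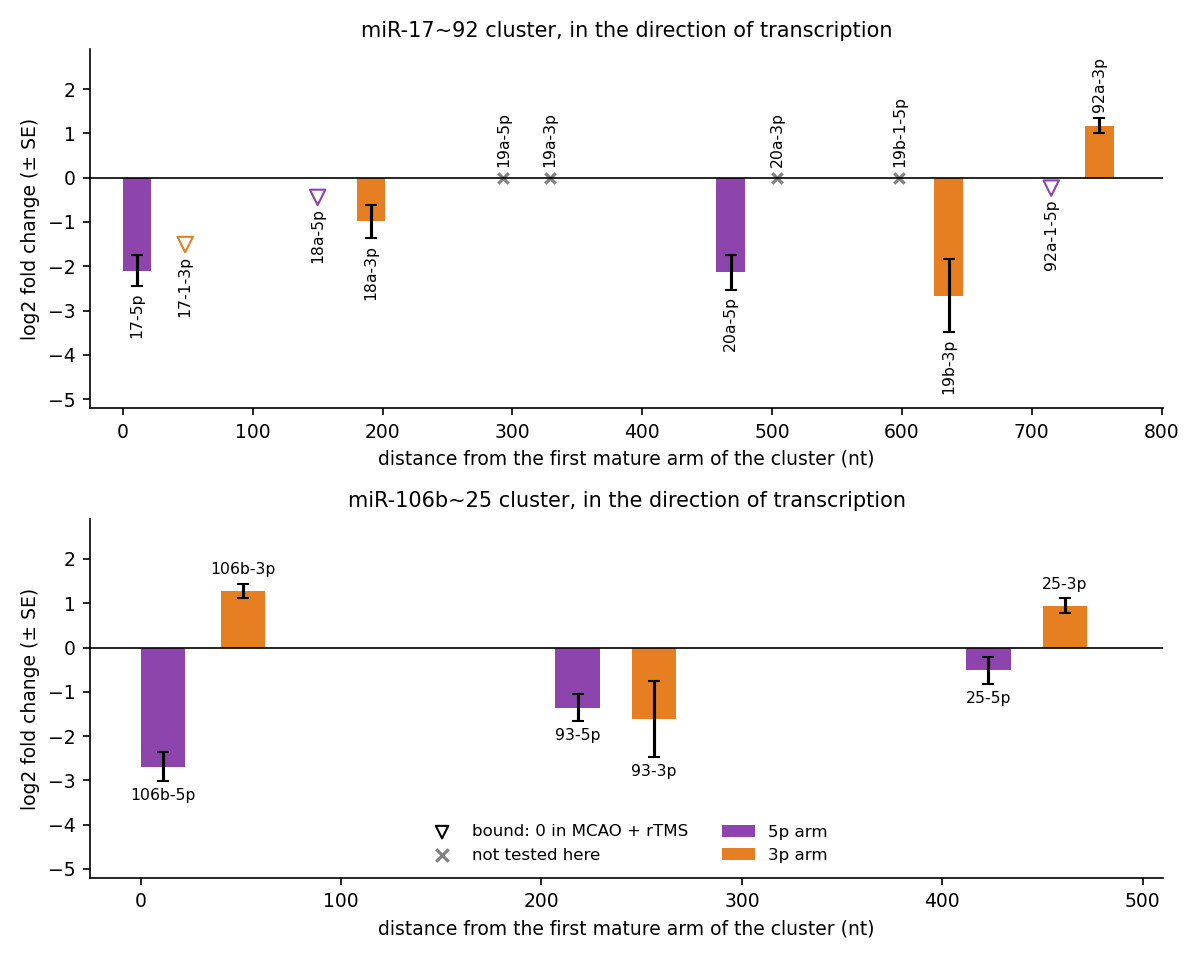
Log2 fold change with TMM factors and its standard error for each mature arm, placed by its distance in nt from the first arm of the cluster in the direction of transcription, with 5p arms in purple and 3p arms in orange. Within each cluster, bars below 0 for the miR-17 family stand beside bars above 0 for miR-92a-3p, miR-25-3p, and miR-106b-3p, and open triangles are bounds for arms listed at 0 in all MCAO + rTMS libraries.

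Relatives outside the clusters were read by seed. Of the 11 arms listed for the paralogous cluster on chromosome X, only miR-20b-5p and miR-363-3p had counts apart from the members that both clusters encode. miR-20b-5p, with the seed of the miR-17 family, had 14, 11, and 0 counts in the MCAO libraries and was listed at 0 in the MCAO + rTMS libraries, and it was not tested. miR-363-3p and miR-92b-3p, a brain-enriched miRNA from chromosome 2, both carry the seed of the miR-92 family and are printed because they moved apart.
miR-363-3p: aAUUGCACgguauccaucugu
miR-92b-3p: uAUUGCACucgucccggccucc
miR-363-3p was at 7.07, 9.41, and 6.14 CPM in the MCAO libraries and at 3.84, 3.63, and 2.24 CPM in the MCAO + rTMS libraries. Its log2 fold change was -1.21 (SE 0.31, adjusted p = 0.013 by edgeR), and without MCAO replicate 2 the adjusted p was 0.053 in the same edgeR test. miR-92b-3p was at 514, 628, and 785 CPM in the MCAO libraries and at 1983, 2448, and 2720 CPM in the MCAO + rTMS libraries, an increase of 1.89 on the log2 scale (SE 0.23, adjusted p = 0.00077 by edgeR). The seed of the miR-92 family was therefore found among both the miRNAs that rose and those that fell. For the seed of the miR-17 family no such comparison was possible, since the only tested miRNAs that carry it are the members themselves.

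Among all tested miRNAs, the profile nearest to that of miR-17-5p was that of miR-20a-5p, with a root-mean-square difference of 0.10 between the log2 levels of the 6 libraries after each was centred on its mean. The other members of the miR-17 family lay further away, miR-106b-5p at rank 10 (0.33) and miR-93-5p at rank 17 (0.40). Outside the clusters, the 3 nearest profiles were those of miR-31a-5p (0.24), miR-369-3p (0.24), and miR-194-5p (0.27). Their log2 fold changes were -1.99, -1.83, and -2.22. These miRNAs share the libraries and the scaling with miR-17-5p, and in each of them MCAO + rTMS replicate 3 was the lowest library too. They were picked for their nearness over the same 6 libraries, so similar fold changes and a low replicate 3 follow from that choice.

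GC content of the mature sequence moved with the fold changes of the whole table. Over the 264 tested miRNAs with a mature sequence and a mean count above 200, the correlation of GC content with the log2 fold change was 0.26 (Pearson) and 0.27 (Spearman), across miRNAs measured in the same 6 libraries, which are not independent replicates. The median log2 fold change was -0.72 for the 47 miRNAs with a GC content under 40% and 0.54 for the 38 with 60% or more. The members that fell had a GC content from 39.1% (miR-19b-3p and miR-20a-5p) to 54.5% (miR-17-1-3p), and it was 50% for miR-25-3p and 57.1% for miR-92a-3p. The GC content of miR-93-5p, which fell, was 52.2%. The part of GC content in the changes of the members was not tested beyond the correction that follows. Among the relatives that rose, miR-106b-3p and miR-92b-3p had a GC content of 63.6%.

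With a trend on GC content removed within each library, over the 414 tested miRNAs with a sequence, 6 members were still called lower and 2 higher by edgeR, where 27.1% and 29.0% of the miRNAs in that fit were. Of the 6, miR-17-1-3p, miR-18a-5p, and miR-106b-5p passed the filter only through the MCAO group, so their calls are a description. The log2 fold change was -2.06 for miR-17-5p, -1.65 for miR-20a-5p, -1.48 for miR-93-5p, -2.35 for miR-106b-5p, 0.98 for miR-92a-3p, and 0.88 for miR-25-3p. It was 0.91 for miR-106b-3p and 1.53 for miR-92b-3p, and both kept their call. miR-19b-3p no longer passed the threshold in this edgeR fit (log2 fold change -2.07, adjusted p = 0.064).

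**Figure D5:**
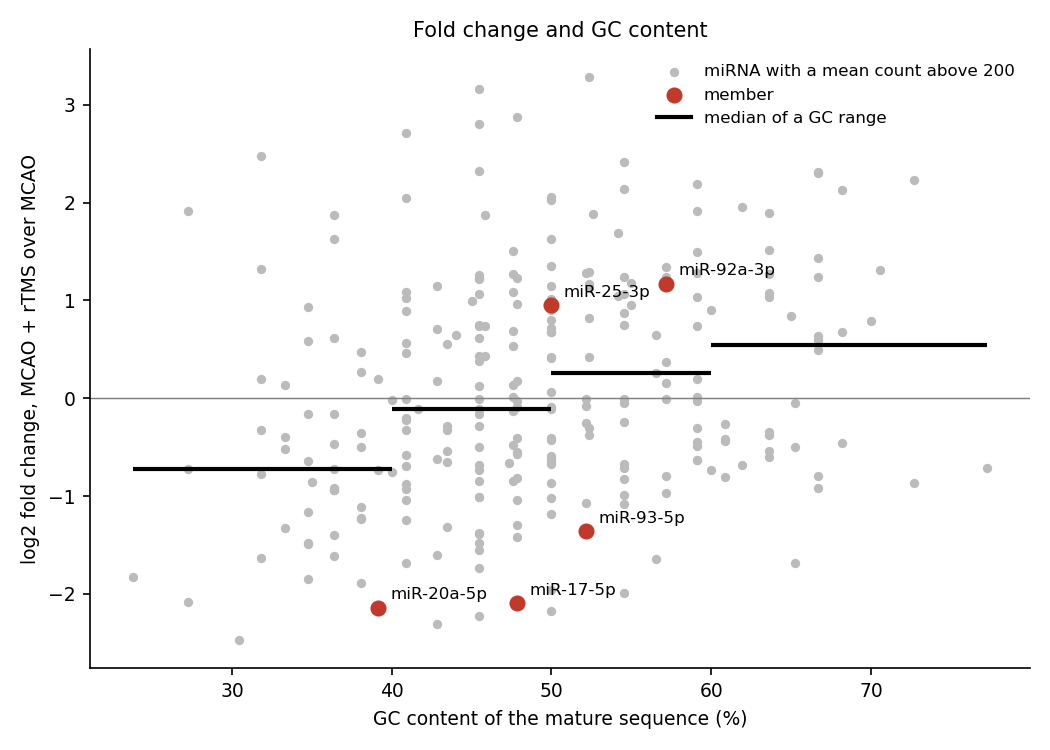
Log2 fold change against the GC content (%) of the mature sequence for the 264 miRNAs with a mean count above 200, with the 5 members among them in red and the median of each GC range as a black line. The medians climb from -0.72 to 0.54, and miR-17-5p, miR-20a-5p, and miR-93-5p lie below the line of their range while miR-92a-3p and miR-25-3p lie above it.

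Markers of other cell types also differed between the groups, some lower and some higher after rTMS, where 28.1% and 27.2% of all tested miRNAs were called. Of the 5 listed miRNAs of leukocytes and microglia, all had counts and 4 fell in the edgeR test (miR-223-3p, miR-142-3p, miR-142-5p, and miR-155-5p). Their summed level was between 695 and 718 CPM without rTMS and between 312 and 549 CPM with it. Of the 2 endothelial miRNAs, 1 fell, and their sum lay between 2993 and 6298 CPM without rTMS and between 2017 and 3293 CPM with it. Of the 3 red blood cell miRNAs listed, 2 were tested, of which miR-486 rose and miR-451-5p fell, and their sum lay between 141 and 302 CPM without rTMS and between 513 and 637 CPM with it. Of the 2 oligodendrocyte miRNAs, 1 rose and 1 did not pass the threshold, with a sum between 571 and 786 CPM without rTMS and between 963 and 2106 CPM with it. The part of these cells in the changes of the 9 members was not tested.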

How the data were processed

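The samples were 3 MCAO and 3 MCAO + rTMS libraries of small RNA from peri-infarct cortex. The authors deposited raw read counts of 493 mature miRNAs, without normalization. The submitters' processing notes name bcl2fastq, BWA, DESeq2, and the build rn6, with no role or order. The miRNA database and the handling of reads with several matches are not given in the sources used here. No molecular identifiers were used, so counts are not numbers of molecules. Of 2958 counts, 286 were listed as 0, and the smallest above 0 was 10.

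Samples were grouped by their labels. The analysis used edgeR 4.0.16 in R 4.3.3 (filterByExpr, TMM factors, quasi-likelihood test, group as the only term), and p-values were adjusted over all 452 tested miRNAs. Fold changes are MCAO + rTMS over MCAO, and a standard error is the log2 fold change divided by the square root of F. Levels are CPM, and log levels were taken after adding 1. Ratios were tested with scipy 1.17.1, and figures drawn with matplotlib 3.10.9 in Python 3.11.15. The fit was tested on simulated data. The methods give 3 rats a group for the sequencing, and the labels do not tie each library to a rat.

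Named miRNAs are all members, every tested relative from lists of other arms, the paralogous cluster and shared seeds, the 3 nearest profiles to miR-17-5p, and listed cell markers. The members and lists were chosen with earlier results of these data known. Alternatives were other scalings, limma-voom (limma 3.58.1), DESeq2 1.42.0, the two-sample comparison with equal variances that the methods name, on log2 CPM, other filters, a block on replicate number, and the omission of each library. Setting each 0 to 9 and the GC correction, a lowess trend per library over 414 miRNAs, were chosen after seeing the data. The authors' own table of selected miRNAs, which repeats the counts of 73 of them, was not used. GRCr8 coordinates belong to the RefSeq sequences and were not converted to the authors' build.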

Additional observations from a re-analysis of the deposited data

How the results depend on the processing

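In 18 alternative fits of the counts no member changed direction, and miR-17-5p, miR-20a-5p, and miR-93-5p passed the threshold in all 18. miR-106b-5p passed it in the 17 that tested it, but its direction was set in part by the filter on low counts, so these calls are a description. The number of members called lower, 7, was 3 with a mean count above 200, since that filter left only 5 members, and 6 or 7 when 1 library was left out. The number called higher, 2, was 0 with edgeR and library totals only, where 1 member had an unadjusted p under 0.05, and 2 with DESeq2 and limma-voom. Among all tested miRNAs, 127 were called lower in the main fit, 103 with a mean count above 200, and 84 to 131 without 1 library. As higher, 123 were called in the main fit, 55 with library totals only, 129 with DESeq2, and 125 with limma-voom. With the replicate number as a block, 4 members and 82 of all tested miRNAs were called lower. The adjusted p in that edgeR fit was 0.059 for miR-17-1-3p, 0.13 for miR-18a-5p, and 0.082 for miR-19b-3p. The labels give the samples only a shared number and no batch. Deviations of same-numbered libraries correlated at 0.20, -0.12, and -0.11, and not every library correlated best with its own number. With 3 libraries a group, these correlations cannot decide whether the libraries were paired. The log2 ratio of the miR-17 family sum was -2.32 with library totals only. That of the miR-92 family was 0.81 with upper-quartile factors and 0.47 with library totals only. Under the same 2 scalings it was 0.50 and 0.17 for the miR-17~92 sum and 0.18 and -0.17 for the miR-106b~25 sum, which reversed. These shifts go with the median of all miRNAs, -0.50 with upper-quartile factors and -0.80 with library totals only. All 6 within-library ratios kept their direction. Depth limits miR-18a-5p, miR-19b-3p, miR-17-1-3p, and miR-106b-5p, whose counts in the MCAO + rTMS libraries lie near the lower limit of 10 or under it.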
